A study of Mus musculus with 5 samples.

Results

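Iron enters blood cells, is stored, is used for heme and is released through a small set of proteins, and 10 genes of that set were followed in hematopoietic stem cells (HSCs) treated with retinoic acid. They were Tfrc and Slc11a2 for uptake, Fth1 and Ncoa4 for storage and its release, Slc40a1 for export, Aco1 and Ireb2 for iron sensing, Alas1 and Alad for heme synthesis, and Hmox1 for heme breakdown. They were chosen by symbol. Each of the 10 was named alone by 1 array feature, so all 10 were measured, among 22180 genes in all. HSCs are the rare marrow cells that renew the blood lineages, and ATRA (all-trans retinoic acid) is a hormone-like derivative of vitamin A. HSCs and progenitors from C57BL/6 mice were kept in culture for 24 h with 5 µM ATRA (2 arrays) or with its solvent DMSO as control (3 arrays), and HSCs were sorted by flow cytometry after the culture. No other allele or agent is named for either group. The labels do not say that replicates came from separate mice or cultures, so the p-values cover no more than the scatter among these arrays, part or all of which can be technical.

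Transferrin-bound iron is taken up by the transferrin receptor, carried out of the endosome by DMT1 and held in ferritin, from which the cargo receptor NCOA4 releases it by delivery to the lysosome. The iron regulatory proteins IRP1 and IRP2 bind stem-loops in mRNAs when iron is low, which stabilizes the receptor mRNA and holds back translation of ferritin and of the exporter ferroportin. Part of this control therefore acts on translation, which an RNA array does not read. Heme is made from glycine and succinyl-CoA, with ALAS1 as the first enzyme in cells other than red cell precursors, and is opened by heme oxygenase.

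Promoter windows of RefSeq (GRCm38.p6, 250 bases before to 50 after a gene's start) were on hand for 7 of the 10 genes, in 13 windows. Slc40a1, Slc11a2 and Hmox1 had no entry. Shown are the window of Aco1, the gene with the lowest adjusted p among the 10, the window of Ncoa4 that held a retinoid half-site, and the window of Alas1 whose nuclear respiratory factor 1 (NRF1) palindrome lies upstream of the start. Capitals mark motif matches, and every sequence runs 5′ to 3′ on the gene's strand.
Aco1, chr4:40143015-40143314, plus strand: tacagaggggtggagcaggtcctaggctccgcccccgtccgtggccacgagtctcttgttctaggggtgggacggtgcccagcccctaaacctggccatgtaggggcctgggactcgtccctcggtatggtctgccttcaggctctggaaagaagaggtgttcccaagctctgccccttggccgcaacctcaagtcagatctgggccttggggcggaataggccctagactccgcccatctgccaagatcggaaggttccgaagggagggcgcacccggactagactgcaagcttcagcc
Ncoa4, chr14:32165539-32165838, plus strand: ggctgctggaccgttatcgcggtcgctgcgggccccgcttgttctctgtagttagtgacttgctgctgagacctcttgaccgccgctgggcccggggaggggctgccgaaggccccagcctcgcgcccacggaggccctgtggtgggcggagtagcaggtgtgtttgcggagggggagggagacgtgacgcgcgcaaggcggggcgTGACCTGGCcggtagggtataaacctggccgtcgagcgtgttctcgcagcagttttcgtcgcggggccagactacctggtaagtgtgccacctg
Alas1, chr9:106247681-106247980, minus strand: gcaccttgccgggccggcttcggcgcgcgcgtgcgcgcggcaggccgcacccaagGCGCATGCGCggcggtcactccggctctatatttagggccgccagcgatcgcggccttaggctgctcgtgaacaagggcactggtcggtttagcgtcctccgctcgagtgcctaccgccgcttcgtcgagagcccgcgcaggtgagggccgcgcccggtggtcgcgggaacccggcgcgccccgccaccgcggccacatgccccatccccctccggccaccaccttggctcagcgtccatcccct
Motifs were searched on both strands. The retinoid half-site AGGTCA was found in 1 of the 13 windows, that of Ncoa4, and in 16.3% of all 32851 promoter windows. It is read there on the reverse strand, at bases 207 to 212 of the window, and overlaps a match to the antioxidant response element core TGACNNNGC (12.4% of all windows). The direct repeat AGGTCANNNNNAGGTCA matched in 0 of the 13 windows and in 3 of all windows. The E-box CACGTG, a site of MYC, was in both Alad windows (7.15% of all windows). The NRF1 palindrome GCGCATGCGC was in both windows of Alas1, which overlap and share the site, and in 0.971% of all windows. The Aco1 window held none of these letters. A match describes the sequence and was not tested as a site of binding.

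The 5 arrays did not behave alike. Pearson's r across features, which are not independent replicates, was 0.966 to 0.978 among the DMSO arrays, 0.73 between the ATRA arrays, 0.811 to 0.834 between ATRA replicate 1 and DMSO, and 0.602 to 0.641 between ATRA replicate 2 and DMSO. The change with ATRA followed the DMSO level of a gene, with a median of 0.45 where the DMSO mean was 5 to 6 (5362 genes) and -1.33 where it was 8 to 9 (2582 genes). By limma, 1437 genes were higher and 3428 lower at an adjusted p under 0.05, which is 21.9% of 22180 genes. The split was 560 higher and 4542 lower after each array was centred on its median, and 340 and 215 with the level trend removed, that is, after the smooth dependence of each ATRA array's difference on the DMSO mean was taken out. The median change of all genes was 0.16, and it moved to -0.03 after repeated quantile normalization, -0.11 after centring and -0.05 after cyclic loess normalization. Many deposited values recur to the last digit. In 47.8% of genes at least 1 value was identical in 2 or more arrays, and this held for 7 of the 10 genes followed here. What produced the repeats was not tested.

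The iron and heme genes gave 2 lower and 0 higher calls with ATRA. Aco1 and Ncoa4 fell, and the other 8 genes did not pass. Lower calls made up 15.5% of all genes. At an unadjusted p under 0.05 the count was 3 of 10, with Ireb2 as the third, against 40.3% of all genes. Both ATRA values lay below all 3 DMSO values in 6 genes and above them in 0, and the groups overlapped in 4, while 29.2% of all genes lay below and 33% above. The median log2 difference of the 10 genes was -0.58, against 0.16 for all genes tested, and with the level trend removed it was -0.26. In that fit 1 of the 10, Fth1, passed, as higher, against 2.5% of all genes in either direction. The differences ranged from -2.33 for Aco1 to 0.41 for Slc40a1. With ATRA replicate 1 left out, 7 of the 10 were called (1 higher, 6 lower) beside 64.1% of all genes (33.5% higher, 30.6% lower). With ATRA replicate 2 left out 3 were called (1 higher, 2 lower) beside 34.6% of all genes (13.3% higher, 21.3% lower), each time with the lone ATRA array assumed to vary like the DMSO arrays. Without any 1 of the DMSO arrays limma called 0 of the 10 and 0 of all genes. At an unadjusted p under 0.05 the count was then 2 of the 10, beside 5907 to 6065 of all 22180 genes.

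**Figure D1:**
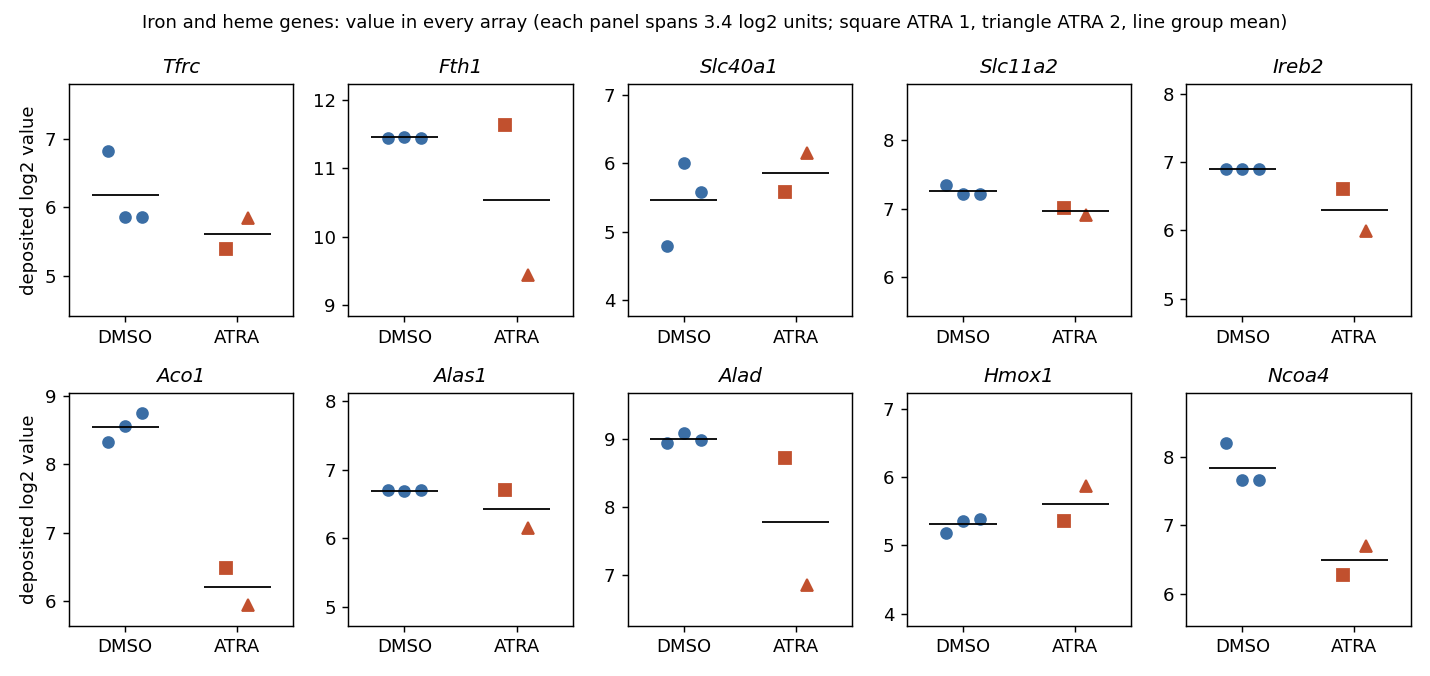
Deposited log2 values of the 10 genes in each array, with 3 DMSO arrays as circles, ATRA replicate 1 as a square, ATRA replicate 2 as a triangle and group means as lines; all panels have the same span, and levels are not comparable between panels. Aco1 and Ncoa4 have both ATRA values far below DMSO, and in Fth1 and Alad the ATRA arrays lie 2.18 and 1.86 apart.

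Of the uptake genes, Tfrc encodes the transferrin receptor CD71, which dividing cells carry in large numbers. Tfrc was at 6.82, 5.86 and 5.86 in the DMSO arrays and at 5.39 and 5.84 in ATRA. The groups did not overlap, but ATRA replicate 2 lay just under the lower DMSO values and DMSO replicate 1 stood apart from the other two. The log2 difference was -0.56 (SE 0.38, 95% interval -1.57 to 0.44, adjusted p = 0.278). It stayed below 0 under every alternative that moved it, from -0.98 to -0.24. The value of Tfrc in DMSO replicates 2 and 3 was one and the same number, which 43 other features of the array held in replicate 2 and 35 in replicate 3. Genes with a DMSO mean from 6 to 7 had a median difference of 0.14, with the 10th percentile at -0.53, close to the value of Tfrc.

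Slc11a2 encodes DMT1, the transporter that moves ferrous iron out of the endosome. It was at 7.34, 7.22 and 7.22 in DMSO and at 7.01 and 6.91 in ATRA. Both ATRA values were below all DMSO values by a narrow margin. The difference of -0.30 (SE 0.12, adjusted p = 0.133) had a 95% interval of -0.61 to 0.01. It turned into 0.071 with the level trend removed and 0.065 after cyclic loess normalization. Without ATRA replicate 1 it passed as lower (-0.35, adjusted p = 0.0405). The values of DMSO replicates 2 and 3 were identical here too, and 10 and 7 other features of those arrays shared the number.

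Ferritin stores iron in a shell of heavy and light subunits, and Fth1 encodes the heavy one, which oxidizes the iron. Fth1 was at 11.45, 11.46 and 11.45 in DMSO, with an SD of 0.0043 and 1 number deposited for replicates 1 and 3. In ATRA it was at 11.63 in replicate 1 and at 9.45 in replicate 2. One ATRA array therefore lay above all DMSO arrays and the other well below them. The mean difference of -0.91 (SE 0.67, 95% interval -2.70 to 0.87, adjusted p = 0.31) describes neither array. Its direction was set by replicate 2, since without that array the difference was 0.18 (adjusted p = 0.0276) and without replicate 1 it was -2.00 (adjusted p = 0.00163). Genes with a DMSO mean from 11 to 12 (133 genes) had a median difference of -2.36. Their 10th percentile was -3.53 and their 90th -0.19. Fth1 lay between these, with 79.7% of the 133 genes below it. With the level trend removed Fth1 passed as higher, by 1.83 (SE 0.18, adjusted p = 0.0262), and after cyclic loess normalization by 1.30 (adjusted p = 0.0392).

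Ncoa4 encodes the receptor that binds the ferritin heavy chain and carries ferritin to the lysosome. It was at 8.20, 7.67 and 7.67 in DMSO and at 6.27 and 6.70 in ATRA. Both ATRA values were about 1 log2 unit or more below the lowest DMSO value. Ncoa4 fell by 1.36 (SE 0.25, adjusted p = 0.0289), which is 2.56-fold lower. The direction held under every alternative that moved the value. Of 16 alternatives, 11 ended the call, with adjusted p-values from 0.0519 to 0.39, against 0.0136 to 0.0289 in the others. Among these were the removal of the level trend (-0.53, adjusted p = 0.39), cyclic loess normalization (-0.85, adjusted p = 0.121) and leaving out any 1 array of either group. Genes with a DMSO mean from 7 to 8 had a median difference of -0.64 and a 10th percentile of -1.42. But Ncoa4, with a DMSO mean of 7.84, lies toward the upper edge of that step, and genes from 8 to 9 had a median of -1.33.

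Slc40a1 encodes ferroportin, the only known iron exporter of mammalian cells. It was at 4.79, 6.01 and 5.58 in DMSO and at 5.58 and 6.15 in ATRA. The DMSO arrays spread over more than 1 log2 unit, and the groups overlapped. The difference was 0.41 (SE 0.43, 95% interval -0.73 to 1.54, adjusted p = 0.457), an interval too wide to tell a rise from a fall. Genes of the same DMSO level, from 5 to 6, had a median of 0.45, and with the level trend removed the value for Slc40a1 was -0.071, against -0.073 after cyclic loess normalization.

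Aco1 showed the largest difference of the 10 genes. It encodes IRP1, which is cytosolic aconitase when it carries an iron-sulfur cluster and an mRNA-binding protein when it does not. Aco1 was at 8.32, 8.56 and 8.74 in DMSO and at 6.48 and 5.93 in ATRA. Both ATRA values lay more than 1 log2 unit under the lowest DMSO value, and the ATRA arrays lay 0.55 apart. Aco1 fell by 2.33 (SE 0.24, 95% interval -2.96 to -1.71, adjusted p = 0.00934), which is 5.04-fold lower. ATRA replicates 1 and 2 taken alone gave -2.06 and -2.61, and both kept the call. Genes with a DMSO mean from 8 to 9 had a 10th percentile of -2.16, above the value of Aco1. With the level trend removed the difference was -1.01 and did not pass (adjusted p = 0.0637). Adjusted p-values ranged from 0.00391 to 0.139 over its 17 alternatives, of which 6 ended the call and 0 turned the direction.

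Ireb2 encodes IRP2, the iron sensor that is controlled by degradation of the protein. It was at 6.90 in all 3 DMSO arrays, to the last deposited digit, and at 6.60 and 5.99 in ATRA. Both ATRA values were lower than DMSO, replicate 2 by the larger step. The difference of -0.60 (SE 0.21, 95% interval -1.16 to -0.04) did not pass after adjustment (adjusted p = 0.109). Its DMSO SD of 0 reflects the repeated number, so the error rests on the ATRA arrays and on the variance that limma borrows from other genes. The difference stayed below 0 under every alternative that moved it, from -0.91 to -0.30. Genes with a DMSO mean from 6 to 7 had a 10th percentile of -0.53, above the value of Ireb2. But Ireb2 lies at the upper edge of that step, and genes from 7 to 8 had a median of -0.64 and a 10th percentile of -1.42. Ireb2 therefore did not stand out clearly from genes near its level. With the level trend removed its difference was -0.50 and did not pass. With 1 ATRA array left out the error of Ireb2 comes from borrowed variance alone, so its calls in those fits (adjusted p = 0.00173 without replicate 1, 0.0135 without replicate 2) carry no replicate evidence.

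**Figure D2:**
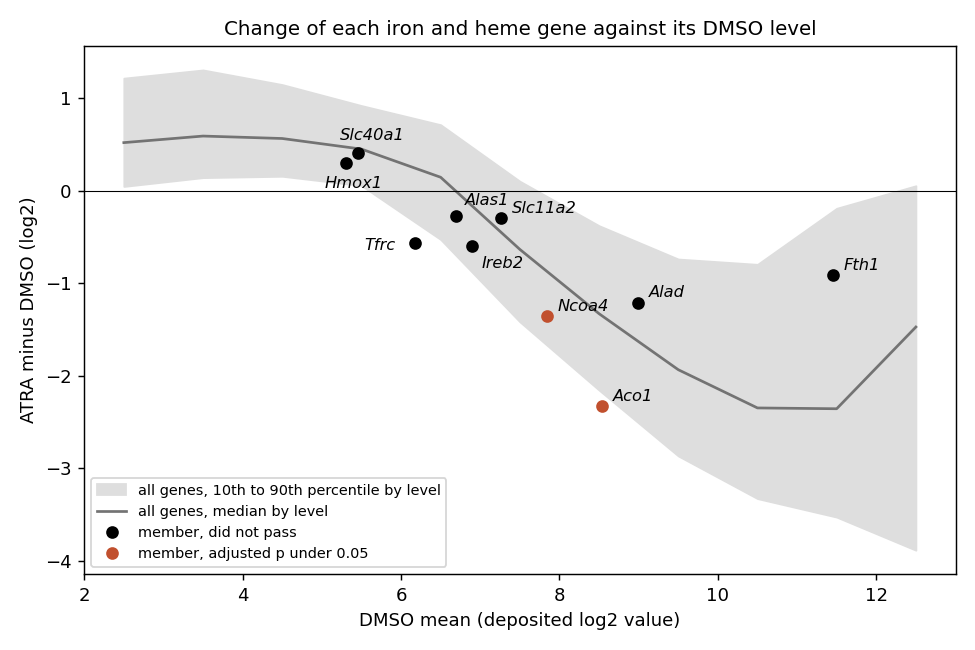
ATRA minus DMSO (log2, vertical) against the DMSO mean (log2, horizontal) for the 10 genes, over the median (line) and the 10th to 90th percentile (band) of all genes in steps of 1 log2 unit; steps with fewer than 40 genes are not drawn. Aco1 at -2.33 and Tfrc at -0.56 lie under the band. Ireb2 at -0.60 has a DMSO mean of 6.90, near the next step, and lies within the band as drawn between step midpoints. Fth1 at -0.91 lies above the median of its level, and Slc40a1 and Hmox1 lie near theirs.

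Of the heme synthesis genes, Alas1 encodes the first enzyme, 5-aminolevulinate synthase. It was at 6.70, 6.69 and 6.70 in DMSO and at 6.70 and 6.14 in ATRA. ATRA replicate 1 carried the same number as DMSO replicates 1 and 3, and only replicate 2 was lower. The difference of -0.27 (SE 0.20, 95% interval -0.80 to 0.25, adjusted p = 0.306) rests on replicate 2, and without it the value was 0.0039. Without replicate 1 it passed (-0.55, adjusted p = 0.00279), against a DMSO SD of 0.0067 between partly repeated numbers. The NRF1 palindrome printed above belongs to this gene.

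Alad encodes aminolevulinate dehydratase, the second enzyme of the pathway. It was at 8.93, 9.08 and 8.99 in DMSO, at 8.71 in ATRA replicate 1 and at 6.86 in replicate 2. Both ATRA values were below DMSO, replicate 1 slightly and replicate 2 by far (-2.14 from the DMSO mean). The difference of -1.21 (SE 0.58, 95% interval -2.74 to 0.31, adjusted p = 0.185) did not pass, and without replicate 2 it was -0.28. Without replicate 1 it passed (-2.14, adjusted p = 0.0023). It became 0.39 with the level trend removed and 0.15 after cyclic loess normalization, neither past the threshold.

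Hmox1 encodes heme oxygenase 1, the inducible enzyme that frees iron from heme. It was at 5.19, 5.35 and 5.39 in DMSO and at 5.35 and 5.87 in ATRA. ATRA replicate 1 held the number of DMSO replicate 2, which 39 other features of that ATRA array shared, so only replicate 2 stood above DMSO. The difference was 0.30 (SE 0.20, 95% interval -0.23 to 0.83, adjusted p = 0.277). The sign turned with the level trend removed (-0.20), after cyclic loess normalization (-0.20) and after quantile normalization (-0.065). With ATRA replicate 1 left out Hmox1 passed as higher (0.56, adjusted p = 0.0334).

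**Figure D3:**
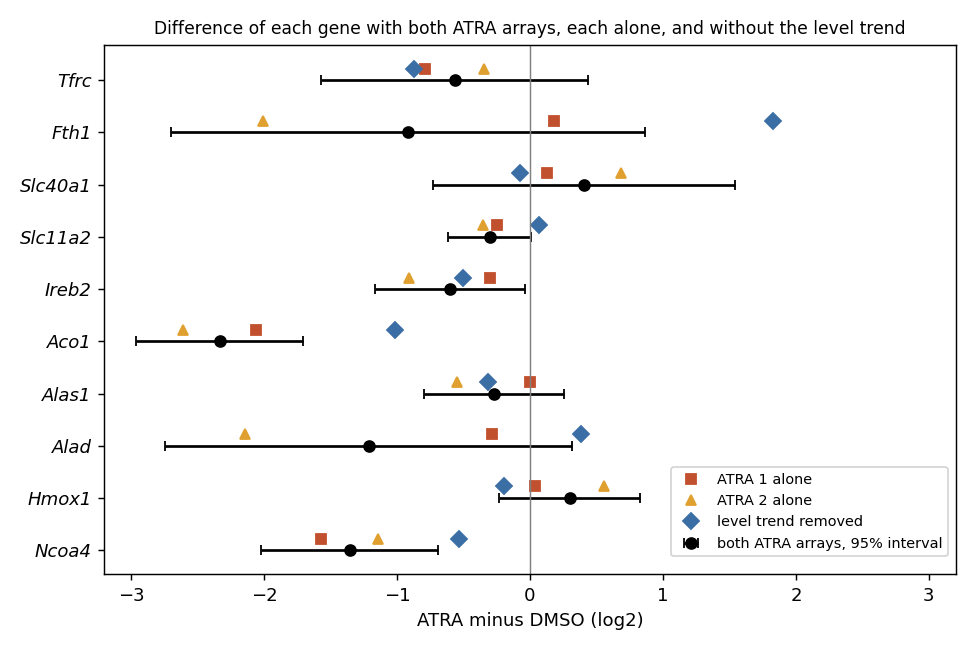
ATRA minus DMSO (log2) of each gene with both ATRA arrays (circle, with the 95% interval of the limma fit), with 1 ATRA array alone (square and triangle) and with the level trend removed (diamond). Aco1, Ncoa4, Tfrc and Ireb2 stay left of 0 in every setting drawn, while Fth1 spans from -2.00 to 1.83.

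Differences between 2 genes within an array take out any shift common to that array, and 3 such pairs were tested. Aco1 minus Ireb2, the 2 iron regulatory proteins, was 1.42, 1.66 and 1.85 in DMSO and -0.12 and -0.06 in ATRA. The ATRA values were close together and far below DMSO, so Aco1 was lower relative to Ireb2 in ATRA (ATRA minus DMSO -1.73). The exact two-sided permutation p over samples was 0.1, the smallest that 3 against 2 arrays allow, and 0.3 after adjustment over the 3 pairs. The difference kept its sign but shrank to -0.51 with the level trend removed and to -0.92 after cyclic loess normalization. The median change of genes at the DMSO level of Aco1 was -1.33. In the step that holds Ireb2 it was 0.14, but Ireb2 lies at its upper edge, and in the next step it was -0.64. A difference within an array does not take out this trend. Tfrc minus Fth1, the receptor against the store, was -4.63, -5.60 and -5.59 in DMSO, -6.24 in ATRA replicate 1 and -3.61 in replicate 2. The ATRA arrays lay on opposite sides of DMSO (exact permutation p = 0.8, adjusted 0.8). Alas1 minus Hmox1, synthesis against breakdown, was 1.51, 1.33 and 1.31 in DMSO and 1.35 and 0.27 in ATRA. Only ATRA replicate 2 lay outside the DMSO values (difference -0.57, exact permutation p = 0.3, adjusted 0.45), and without it the difference was -0.04.

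A wider list of 71 iron and heme genes, chosen by role, had 62 genes with a feature of their own. Of these, 3 rose, 17 fell and 42 did not pass, against 6.48% of all genes higher and 15.5% lower. The median difference of the 62 genes was -0.59, and that of all genes 0.16. With the level trend removed, 2.5% of all genes passed in either direction. The median of the 62 was then -0.09, and 2 of them rose and 0 fell. These were the iron-sulfur scaffold gene Nfu1 (1.18, adjusted p = 0.0262) and the heme-binding Pgrmc1 (1.12, adjusted p = 0.0459), which were named after their values were seen and which had not passed before, at -0.69 and -0.53. For Nfu1 the deposited value was 9.51 in all 3 DMSO arrays and in ATRA replicate 1, to the last digit, and 8.12 in ATRA replicate 2, so that call compares a repeated number with 1 lower value, shifted by the trend. Without ATRA replicate 1 the counts were 15 higher and 36 lower, where 33.5% of all genes were higher and 30.6% lower. Without replicate 2 they were 8 and 25, where 13.3% of all genes were higher and 21.3% lower.

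Among 10 other uptake genes 0 rose and 3 fell. Beside the counts of each of the 5 groups stand the shares over all genes, 6.48% higher and 15.5% lower. Tfr2, the second transferrin receptor, was at 8.06, 8.07 and 7.91 in DMSO and at 6.17 and 6.25 in ATRA. The 2 ATRA values nearly coincided, and Tfr2 fell by 1.81 (SE 0.12, adjusted p = 0.00665). Mcoln1, a lysosomal channel that releases iron, fell by 1.79 (adjusted p = 0.0113). Of 14 genes of storage, handling and export, 2 rose and 2 fell. Pcbp1, the chaperone that hands iron to ferritin, fell by 1.11 (adjusted p = 0.0148). Hamp, the gene of the liver hormone hepcidin that closes ferroportin, went from 3.52, 3.45 and 3.50 to 4.47 and 4.34 (0.91, adjusted p = 0.0132), and genes with a DMSO mean from 3 to 4 had a median of 0.59. Fbxl5, the iron-sensing ligase that degrades IRP2, differed by -0.88 and did not pass (adjusted p = 0.0705). Ftl1, the ferritin light chain gene, and Alas2, the erythroid synthase gene, were not analysed here.

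Of 20 genes of mitochondrial iron and iron-sulfur clusters, 0 rose and 7 fell, where 6.48% of all genes were higher and 15.5% lower. The median of these 20 was -0.97, against -1.33 for the median change of genes at their levels. With the level trend removed it was -0.13, and 1 rose and 0 fell, where 2.5% of all genes passed in either direction. Slc25a37, the mitochondrial importer mitoferrin 1, was at 8.82, 8.68 and 8.50 in DMSO and at 6.76 and 6.37 in ATRA. Both ATRA values were far under DMSO, and Slc25a37 fell by 2.10 (SE 0.19, adjusted p = 0.00776). Nubp2, a scaffold of cytosolic iron-sulfur cluster assembly, fell by 2.44 (adjusted p = 0.00627), from 9.44, 9.25 and 9.33 to 6.92 and 6.89. Of 8 other heme synthesis genes 0 rose and 2 fell, and the remaining 6 had negative differences that did not pass. The median of these 8 was -0.80, against -0.98 for the median change of genes at the levels of the 8. It shrank to -0.43 after quantile normalization, -0.32 with the level trend removed and -0.41 after cyclic loess normalization. Of the 8, 2 turned positive with the level trend removed and 2 after cyclic loess normalization. Ppox, the enzyme before ferrochelatase, fell by 1.82 (adjusted p = 0.00915) and Tmem14c, a mitochondrial porphyrin transporter, fell by 2.82 (adjusted p = 0.0153). Of 10 genes of heme breakdown and transport, 1 rose and 3 fell, with a median of -0.45. That median turned to 0.089 after quantile normalization, 0.34 with the level trend removed and 0.40 after cyclic loess normalization. The heme transporter Slc48a1 fell by 2.40 (adjusted p = 0.00981) and Bach1, the heme-sensing repressor of Hmox1, fell by 1.12 (adjusted p = 0.0125). With the level trend removed none of these named genes passed. The differences were then -0.85 for Tfr2, -0.31 for Mcoln1, -0.64 for Pcbp1, 0.39 for Hamp, -0.70 for Slc25a37, -0.65 for Nubp2, -0.79 for Ppox, -0.81 for Tmem14c, -0.37 for Slc48a1 and -0.01 for Bach1.

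**Figure D4:**
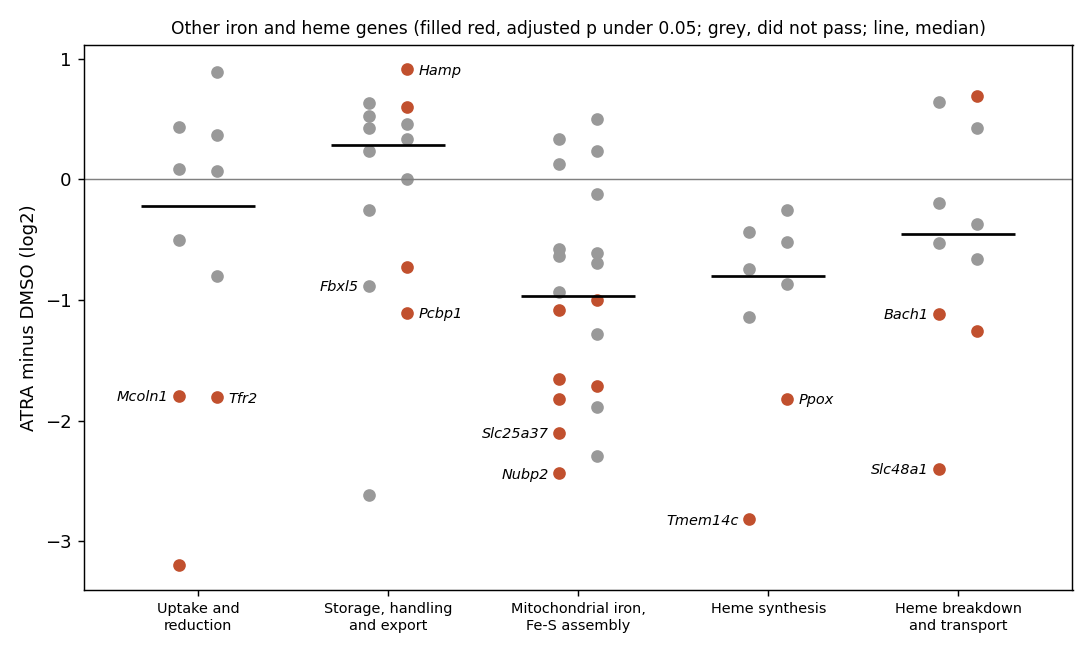
ATRA minus DMSO (log2) of 62 other iron and heme genes in 5 groups, with genes past a limma adjusted p of 0.05 in red, the others in grey and the group median as a line. The 8 heme synthesis genes lie below 0 with a median of -0.80 (2 of 8 lie above 0 with the level trend removed, and 2 after cyclic loess normalization), and the storage, handling and export genes have a median of 0.29 (-0.062 after cyclic loess normalization).

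The HSC label was set against markers. All 13 HSC and progenitor markers that could be named lay above the median of all features (5.90) in DMSO. Their mean log2 value was 8.28 to 8.48 in the DMSO arrays and 7.44 and 6.68 in ATRA. Of the 13, 0 rose and 7 fell, with a median difference of -1.22. Among all genes 6.48% were higher and 15.5% lower in that fit, and these shares also apply to its marker calls below. After cyclic loess normalization 0 of the 13 rose and 6 fell, where 771 of 22180 genes were higher and 1504 lower. With the level trend removed 0 of the 13 rose and 0 fell, against 2.5% of all genes in either direction, and their median was -0.56. Erythroid and macrophage cells handle much iron and heme, so their markers were read too. The 6 erythroid markers averaged 6.12 to 6.15 in DMSO and 6.11 and 6.60 in ATRA, with 0 calls, and 4 of 6 lay above the median of all features. Globin genes were not analysed here. The 13 monocyte and macrophage markers averaged 6.11 to 6.19 in DMSO and 6.40 and 6.23 in ATRA, with 1 higher call, the hemoglobin scavenger receptor Cd163, and 5 of 13 above that median. Means were 5.63 to 6.02 against 6.23 and 6.15 for 10 neutrophil markers, 8.20 to 8.37 against 7.69 and 7.77 for 5 megakaryocyte markers, and 5.32 to 5.53 against 5.92 and 6.12 for 10 lymphoid markers. Above the median of all features in DMSO lay 5 of 10 neutrophil, 5 of 5 megakaryocyte and 1 of 10 lymphoid markers. That count and the DMSO means therefore do not tell the HSC list from the megakaryocyte list. The neutrophil, megakaryocyte and lymphoid lists each had 1 call, S100a9 higher (0.81), Itga2b lower (-2.07) and Cd3g higher (0.57). With the level trend removed none of the calls of these lists or of Cd163 passed. The differences were then 0.42 for Cd163, 0.37 for S100a9, -0.33 for Itga2b and 0.03 for Cd3g. Pf4, a megakaryocyte marker at -0.17 before, then passed as higher (1.92, limma adjusted p = 0.0446). The part of these shifts in the iron and heme results was not tested. In sorted bulk RNA, fewer cells of a type and less RNA per cell cannot be told apart.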

How the data were processed

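RNA of sorted HSCs was measured on 5 Affymetrix arrays, grouped by their titles. The authors deposited log2 expression values, 1 per feature and array. Per the submitters' processing notes, RMA, oligo 1.36.1 and limma 3.28.20 were used, with no role given. Build and annotation: not given in the sources used here.

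Of 41345 features, 23521 carried 1 gene in the platform table, 1814 carried several and named none, and the rest are unnamed here. Symbols were updated by gene identifier (23328 matched). Of several features of a gene, that of highest mean was taken, with no filter on low values. ATRA was compared with DMSO by limma 3.58.1 (R 4.3.3; lmFit, eBayes, 3 residual degrees of freedom, prior worth 1.52), two-sided, with Benjamini-Hochberg adjustment over 22180 genes. The fit was tested on simulated data. A fold is on the deposited log2 scale, which compresses dim features. The number of arrays limits precision. The level trend was a loess curve (span 0.3) on the DMSO mean.

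The 10 genes and the wider lists were chosen with earlier results of these data known. Named among the wider list are the 2 smallest p in each of 5 groups, plus Ftl1, Alas2, Slc25a37, Fbxl5 and Bach1. Motifs were chosen after the data were seen.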

Additional observations from a re-analysis of the deposited data

How the results depend on the processing

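Of 17 alternatives, 1 was added after seeing the data (genes with values tied between arrays left out). Counts of calls are given for all genes, the 10 iron and heme genes and the 62 others, which were 4865, 2 and 20. Leaving out 1 array at a time gave 0 to 14207, 0 to 7 and 0 to 51. The 0 came from leaving out any DMSO array (limma, 5907 to 6065, 2, and 22 to 23 at an unadjusted p under 0.05). The replicate number as a block also gave 0, 0 and 0 (5412, 2 and 18 unadjusted), and array weights 0, 0 and 0 (4377, 1 and 22). Those weights were 0.137 for each ATRA array and 1.31, 4.99 and 8.14 for DMSO replicates 1, 2 and 3. Samples of 1 number share only that number as far as the labels say, and deviations from the group means of same-numbered arrays correlated at 0.13 and 0.098. With 2 ATRA arrays these deviations mirror each other, so each DMSO array gives 1 r with both signs. DMSO replicate 3, without an ATRA array of its number, gave 0.071 with ATRA replicate 2. Such values cannot decide whether arrays were paired. Quantile normalization of the deposited values gave 2182, 1 and 11, removal of the level trend 555, 1 and 2, and no empirical Bayes prior 1691, 1 and 10. Cyclic loess gave 2275 and 12 for all genes and the others, an adjusted p under 0.1 gave 7755 for all genes, and leaving out tied genes left 3 of the 10 genes, with 1 called. The signs that turned were those of Fth1 (-2.00 to 0.18 without 1 array, 1.30 with cyclic loess, 1.83 with the trend removed), Slc40a1 (-0.073 and -0.071 in the last settings named), Slc11a2 (0.065 and 0.071), Alad (0.15 and 0.39), Hmox1 (-0.20 and -0.20, and -0.065 with quantile normalization) and Alas1 (-0.55 to 0.0039 without 1 array). Tfrc minus Fth1 (0.35) became -0.96 without ATRA replicate 2 (range without 1 array -0.96 to 1.66), -0.46 with quantile normalization, -2.28 with cyclic loess and -2.70 with the trend removed. The cause of these moves was not tested. Of 160 values of the 10 genes under the alternatives, 55 could not or did not move, such as those with another threshold or variance model. Of the 105 that moved, 92 kept their sign and 13 turned. Over all 160, 17 lost a call and 10 gained one.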
